A study of Mus musculus with 6 samples.

Results

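The RUNX family of DNA-binding factors and their common partner were followed in hematopoietic stem cells (HSCs) that lack CD74. The group holds 4 genes, Runx1, Runx2, Runx3 and Cbfb, out of 19846 genes in the processed table, and each gene had 1 row. They were chosen by name, as partners of the CD74 intracellular domain in published work, and the rule used no measured value. RNA had been sequenced from CD34-/LSK cells of untreated mice on the C57BL/6 background. LSK cells are bone marrow cells that lack lineage markers and carry Sca-1 and c-Kit, and their CD34- part is enriched for HSCs. There were 3 libraries from CD74-/- mice, which lack Cd74 in the whole animal and not in HSCs alone, and 3 libraries from WT mice. Mice of both genotypes were 6 to 8 weeks old, and each library was made from 1000 sorted cells. Since the labels give 3 replicates per genotype, each library was read as 1 mouse.

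RUNX1, RUNX2 and RUNX3 bind the same short DNA sequence through a shared Runt domain. CBFB does not bind DNA itself. It joins the Runt domain, tightens its hold on DNA and protects RUNX1 from degradation. RUNX1 is needed for the first HSCs of the embryo and for megakaryocytes and lymphocytes in the adult, RUNX2 for bone formation and for plasmacytoid dendritic cells, and RUNX3 for cytotoxic T cells and NK cells. The intracellular domain of CD74 is released from the membrane and acts on transcription in the nucleus.

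The DNA letters that these proteins read also occur in front of 2 of their own genes. The RefSeq promoter table, on GRCm38.p6, gave 6 promoters for the 4 genes, and the 250 bases upstream of each start were searched for TGTGGT, a frequent form of the RUNX core site, or its reverse complement ACCACA on the other strand. No other motif was searched. Of the 6 promoters, 2 held the motif, and they are shown because the motif is the one that the members' own proteins read. The Runx2 promoter (chr17:44814628-44814877, minus strand) and the first Runx3 promoter (chr4:135120395-135120644, plus strand) are printed 5′ to 3′ with the motif in capitals.
Runx2: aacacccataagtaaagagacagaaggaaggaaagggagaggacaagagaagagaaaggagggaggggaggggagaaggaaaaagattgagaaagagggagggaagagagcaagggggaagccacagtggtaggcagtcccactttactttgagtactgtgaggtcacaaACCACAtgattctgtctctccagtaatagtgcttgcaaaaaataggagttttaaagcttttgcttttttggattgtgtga
Runx3: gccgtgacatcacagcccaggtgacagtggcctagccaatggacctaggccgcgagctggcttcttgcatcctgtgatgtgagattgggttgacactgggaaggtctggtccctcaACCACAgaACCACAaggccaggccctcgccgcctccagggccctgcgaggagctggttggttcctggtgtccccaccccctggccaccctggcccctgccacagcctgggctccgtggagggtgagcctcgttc
The single Runx2 match ended 74 bases from the start, and the pair of Runx3 matches ended 128 and 120 bases from it. Neither Runx1 promoter, nor the second Runx3 promoter, nor the Cbfb promoter held these letters. Of all 32851 promoters of this length, 4614 (14.0%) held the motif and 1.27% held 2 or more copies. A match describes the letters only, since no binding was measured here.

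Between 14390534 and 16198678 reads were counted in genes in CD74-/- libraries and between 14543781 and 16093212 in WT libraries, so depth was alike. A read was found in 16383 to 16630 genes per CD74-/- library and in 17062 to 17376 genes per WT library. Cd74, the deleted gene, had 46.0, 72.0 and 72.8 normalized counts in CD74-/- replicates 1 to 3 against 3287, 2459 and 3107 in WT replicates 1 to 3. A normalized count is the number of reads of a gene divided by the size factor of its library. All 10 stem cell markers on the list used, among them Kit, Hlf and Mecom, were detected in both genotypes. Within the CD74-/- group, 1 library stood apart over all genes. CD74-/- replicate 3 differed from the other CD74-/- libraries by a median of 0.697 and 0.718 on the log2 scale, while these differed from each other by 0.431 and WT libraries by 0.371 to 0.525. The largest median of any pair was 0.747, between CD74-/- replicate 2 and WT replicate 1. By this median CD74-/- replicate 3 was nearer to each WT library, at 0.497 to 0.603, than to its own group. Correlation across genes did not give that order. For CD74-/- replicate 3, r was 0.850 and 0.859 with CD74-/- replicates 1 and 2. With WT replicates 1, 2 and 3 it was 0.825, 0.874 and 0.853. Results that depend on CD74-/- replicate 3 are therefore given with and without this library.

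All 4 genes were readily detected in CD34-/LSK cells. Since longer genes collect more reads, levels were compared between genes per kilobase of exon. Cbfb had the highest level, 1186 ± 411 normalized counts per kilobase in CD74-/- cells and 1098 ± 151 in WT cells (SD, n = 3 each). Runx2 followed with 279 ± 107 per kilobase in CD74-/- cells and 276 ± 43.9 in WT cells, and Runx1 with 239 ± 99.7 in CD74-/- cells and 261 ± 16.5 in WT cells (SD, n = 3 each). Runx3 was lowest, 114 ± 20.0 per kilobase in CD74-/- cells and 134 ± 34.3 in WT cells (SD, n = 3 each). Cbfb was the highest and Runx3 the lowest in each of the 6 libraries. Runx1 and Runx2 could not be placed in order, as their levels per kilobase lay within each other's spread and Runx2 was the higher of the pair in 4 of 6 libraries. Among the 14892 genes tested, the mean normalized count of Cbfb ranked 680, that of Runx1 1013, that of Runx2 1315 and that of Runx3 4838. The exon length counts every base in any annotated exon, 12.025 kb for Runx1, 8.837 kb for Runx2, 5.003 kb for Runx3 and 3.48 kb for Cbfb, and the levels per kilobase follow from it. Counts per gene pool the transcripts of all promoters, so shifts between isoforms were not analysed here.

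None of the 4 genes differed between the genotypes by the test across all genes. The comparison asked whether HSCs that lose CD74 also alter the RNA of the factors its intracellular domain works with. It was run with limma on log2(normalized count + 1), and an adjusted p (Benjamini-Hochberg, over 14892 genes) under 0.05 was called. By this rule 0 of 4 members were called, where 0.0873% of all tested genes were called, and 0 of 4 had an unadjusted p under 0.05, where 7.74% of tested genes did. edgeR, DESeq2 and limma-voom, run on reads recovered from the table, also called 0 of 4, where they called 0.083%, 0.756% and 0.0415% of all genes. CD74-/- and WT libraries overlapped for 4 of 4 members, where 12.8% of tested genes had no overlap. A p above the threshold does not show that levels were the same, and the 95% intervals below say how large a change these libraries leave possible. As these are bulk libraries, fewer cells that express a gene and less RNA per cell cannot be told apart.

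Runx1 (ENSMUSG00000022952), the family member with the broadest role in blood, lies on chr16:92601466-92826149, minus strand (GRCm38), with 7 annotated transcripts. It had 2086, 2292 and 4259 normalized counts in CD74-/- replicates 1, 2 and 3, against 3024, 3022 and 3366 in WT replicates 1, 2 and 3. CD74-/- replicates 1 and 2 lay below every WT library and CD74-/- replicate 3 above every WT library, so the groups overlapped. The mean was 2879 ± 1199 in CD74-/- cells and 3138 ± 198 in WT cells (SD, n = 3 each). The log2 fold change was -0.20 (SE 0.277, 95% interval -0.82 to 0.42), with an adjusted p of 0.873 by limma. The exact permutation test over the 6 libraries, two-sided, gave p = 0.5, where 3 against 3 cannot go below 0.1. Of its exon bases, 106 (0.881%) are shared with Gm26626 on the opposite strand, and the library kit does not keep the strand.

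Runx2 (ENSMUSG00000039153), the bone and plasmacytoid dendritic cell factor, lies on chr17:44495987-44814797, minus strand, with 13 annotated transcripts. Its normalized counts were 1909.6, 1930.5 and 3565 in CD74-/- replicates 1, 2 and 3, against 2036, 2811 and 2462 in WT replicates 1, 2 and 3. The order was the same as for Runx1, with CD74-/- replicates 1 and 2 below all WT libraries and CD74-/- replicate 3 above them. Means were 2468 ± 949.7 in CD74-/- cells and 2436 ± 388 in WT cells (SD, n = 3 each), and the log2 fold change was -0.03 (SE 0.281, 95% interval -0.66 to 0.59, adjusted p = 0.983 by limma). The exact permutation test gave p = 0.8. The sign of this small value was not stable, since edgeR gave 0.04 and DESeq2 0.02. Runx2os1, an RNA on the opposite strand that shares 519 of the exon bases of Runx2 (5.87%), had 125, 137 and 105 normalized counts in CD74-/- libraries and 124, 111 and 123 in WT libraries, and reads of the shared bases cannot be assigned to a strand.

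Runx3 (ENSMUSG00000070691), the cytotoxic lymphocyte factor, lies on chr4:135120652-135177990, plus strand, with 6 annotated transcripts. Its normalized counts were 670.1, 577 and 470.3 in CD74-/- replicates 1, 2 and 3, against 868, 591 and 553 in WT replicates 1, 2 and 3. Here CD74-/- replicate 3 was the lowest of all libraries, WT replicate 1 was the highest, and the groups overlapped. Means were 572 ± 99.96 in CD74-/- cells and 671 ± 172 in WT cells (SD, n = 3 each). The log2 fold change was -0.21 (SE 0.297, 95% interval -0.88 to 0.45), with an adjusted p of 0.872 by limma and p = 0.5 by the exact permutation test. Of the words of 50 bases in its transcripts, 1.11% also occur in another gene.

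Cbfb (ENSMUSG00000031885), the partner without which RUNX factors hold DNA weakly, lies on chr8:105170674-105217989, plus strand, with 7 annotated transcripts. It had 3473, 3138 and 5766 normalized counts in CD74-/- replicates 1, 2 and 3, against 3522, 3512 and 4425 in WT replicates 1, 2 and 3. CD74-/- replicates 1 and 2 again lay below every WT library, the first by a small margin, and CD74-/- replicate 3 above every WT library. Means were 4126 ± 1430.4 in CD74-/- cells and 3819.7 ± 524 in WT cells (SD, n = 3 each). The log2 fold change was 0.07 (SE 0.258, 95% interval -0.51 to 0.64), with an adjusted p of 0.961 by limma and p = 1.0 by the exact permutation test. On the fold scale, the intervals of the 4 genes reached from 0.545 to 0.704 at the low end and from 1.34 to 1.56 at the high end.

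**Figure D1:**
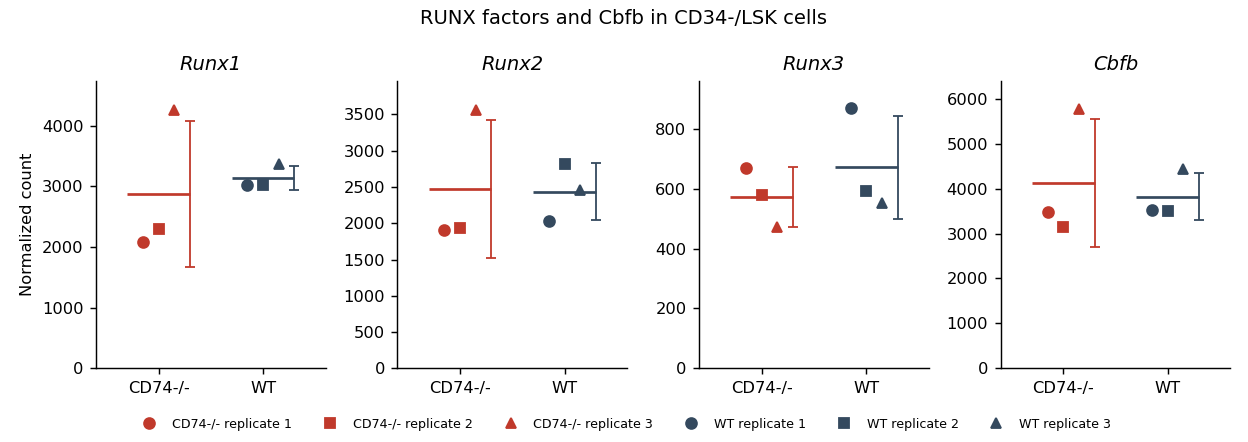
Normalized counts of Runx1, Runx2, Runx3 and Cbfb (vertical axes, each from 0) in the 3 CD74-/- and the 3 WT libraries; each point is a library, the horizontal line is the mean and the bar is 1 SD. CD74-/- replicate 3 is the highest library for Runx1 (4259), Runx2 (3565) and Cbfb (5766) and the lowest for Runx3 (470.3).

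The spread within CD74-/- cells was the main feature of 3 of the 4 genes. The SD was 41.7% of the mean in CD74-/- libraries and 6.31% in WT libraries for Runx1, 38.5% and 15.9% for Runx2, and 34.7% and 13.7% for Cbfb. For Runx3 it was 17.5% in CD74-/- libraries and 25.6% in WT libraries. In each of the 3, replicate 3 lay far from replicates 1 and 2. Its normalized count was 1.95 times the mean of CD74-/- replicates 1 and 2 for Runx1, 1.86 times for Runx2 and 1.74 times for Cbfb, and 0.754 times for Runx3.

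Without CD74-/- replicate 3, which left 2 CD74-/- libraries, Runx1, Runx2 and Cbfb each lay below all WT libraries and Runx3 still overlapped. Of all tested genes, 18.7% lay below all WT libraries in this way and 38.0% lay on one side or the other. The limma log2 fold change of Runx1 was then -0.52 (unadjusted p = 0.0133, adjusted p = 0.155), where limma called 0.236% of genes and no member. With DESeq2 on recovered reads it was -0.52 with an adjusted p of 0.0445, the single call of a member in any of the 22 settings tried, in a comparison where 6.06% of 19467 genes were called and 2.48% were called lower. With all 6 libraries DESeq2 gave -0.12 with an adjusted p of 0.973 (0.756% of genes called). Without the same library Runx2 had a limma log2 fold change of -0.33 (adjusted p = 0.390), Cbfb one of -0.20 (adjusted p = 0.568), a reversed sign, and Runx3 one of -0.08 (adjusted p = 0.905). The summed stem cell markers also differed between the CD74-/- libraries, with 31352, 36652 and 50032 normalized counts in CD74-/- replicates 1, 2 and 3 against 38158, 42316 and 46692 in WT replicates 1, 2 and 3. Their part in the RUNX values was not tested.

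**Figure D2:**
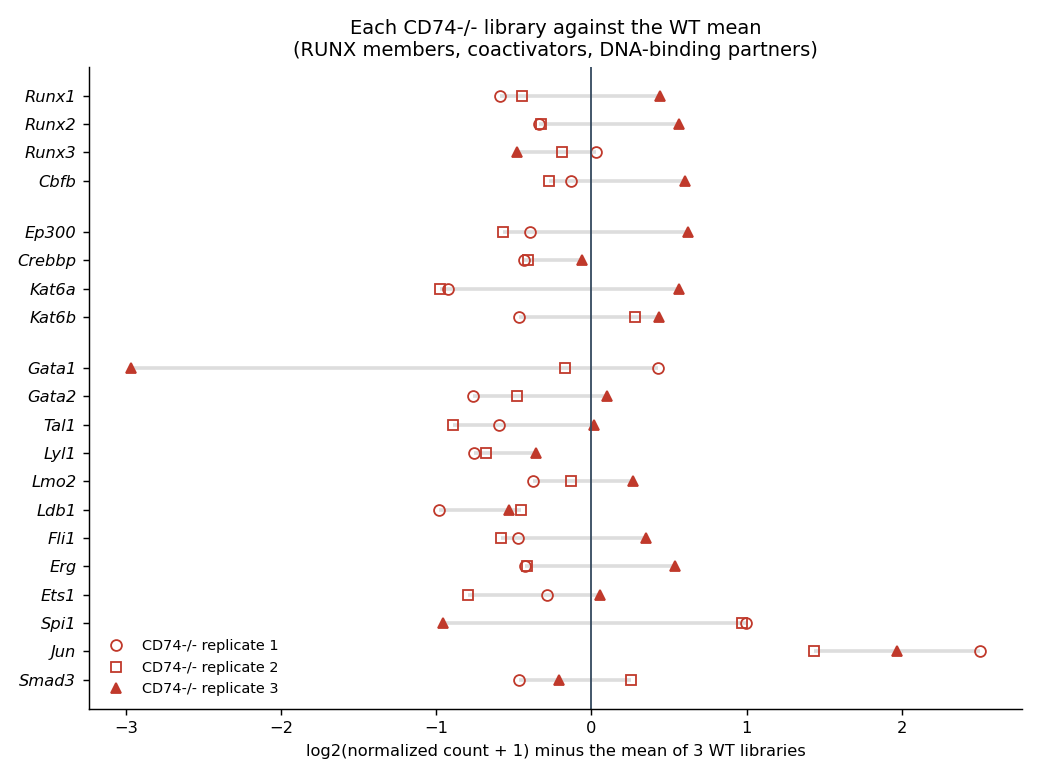
Difference of each CD74-/- library from the mean of the 3 WT libraries, as log2(normalized count + 1) on the horizontal axis, for the RUNX genes and Cbfb, the coactivators and the DNA-binding partners whose mean normalized count reached 50; the vertical line at 0 is the WT mean. Replicate 3 (filled triangle) lies at 0.44 for Runx1, 0.56 for Runx2 and 0.60 for Cbfb, to the right of replicates 1 and 2, and at -0.48 for Runx3.

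The difference between CD74-/- replicate 3 and the other CD74-/- libraries followed gene length across the table. For each gene, the value of CD74-/- replicate 3 was set against the mean of CD74-/- replicates 1 and 2 on the log2 scale. This contrast cannot tell which side carries the trend. Against the other 5 libraries, medians of CD74-/- replicates 1 and 2 fell with length while that of CD74-/- replicate 3 rose. The median difference was -0.29 for the quartile of genes with the shortest exons, then -0.15 and 0.14, and 0.36 for the quartile with the longest exons, and 0.05 over all of them. It was the highest CD74-/- library for 29.1%, 31.7%, 43.0% and 57.4% of genes in these quartiles. Runx1 and Runx2 fall in the longest quartile (6.293 to 123.179 kb), Runx3 in the next (3.918 to 6.292 kb) and Cbfb in the one below that (2.294 to 3.917 kb). Their own differences were 0.96 for Runx1, 0.89 for Runx2, -0.40 for Runx3 and 0.80 for Cbfb. Of all tested genes, 82.5% had a smaller value than Runx1, 80.8% than Runx2, 78.4% than Cbfb and 33.1% than Runx3. Runx1, Runx2 and Cbfb lay above the median of their own quartile and Runx3 below its own. What part gene length has in the RUNX values was not tested.

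**Figure D3:**
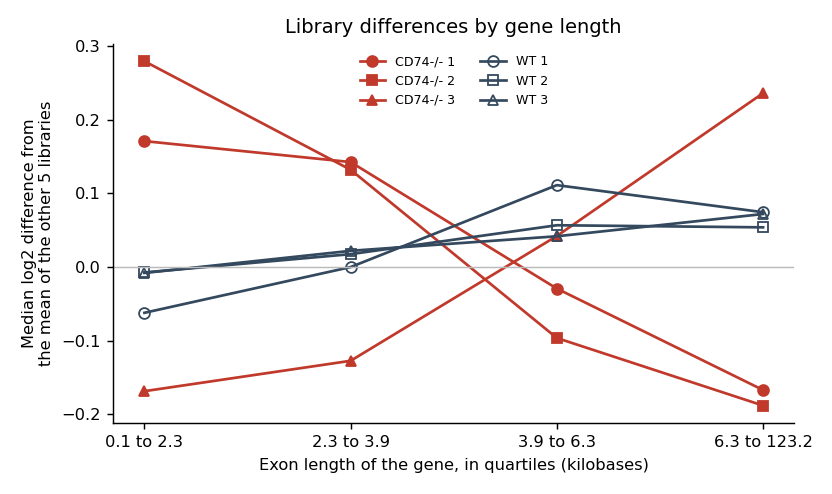
Median difference of each library from the mean of the other 5 libraries (vertical axis, log2 scale) for genes in quartiles of exon length (horizontal axis, kilobases). CD74-/- replicate 3 goes from -0.17 in the shortest genes to 0.24 in the longest, CD74-/- replicates 1 and 2 from 0.17 and 0.28 to -0.17 and -0.19, and the WT libraries stay between -0.06 and 0.11.

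The make-up of the RUNX RNA was next compared, since the 3 factors compete for CBFB and for the same sites. Shares were taken of the sum of Runx1, Runx2 and Runx3 per kilobase. Runx1 made up 33.1%, 36.4% and 41.6% in CD74-/- replicates 1, 2 and 3, against 38.4%, 36.6% and 41.8% in WT replicates 1, 2 and 3. Runx2 made up 41.3%, 41.7% and 47.4% in CD74-/- libraries against 35.1%, 46.3% and 41.6% in WT libraries. Runx3 made up 25.6%, 22.0% and 11.04% in CD74-/- libraries against 26.5%, 17.2% and 16.5% in WT libraries. The groups overlapped for each factor. The mean differences, CD74-/- minus WT, were -1.90 percentage points for Runx1, 2.42 for Runx2 and -0.53 for Runx3, with exact permutation p of 0.4, 0.5 and 0.9. Runx1 and Runx2 RNA thus stood at comparable shares in CD34-/LSK cells of both genotypes, with Runx3 the smallest share in every library.

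Per kilobase, Cbfb RNA exceeded the RUNX sum in every library. Without length scaling it lay below the sum in every library. The log2 ratios were -0.43, -0.61 and -0.52 in CD74-/- replicates 1 to 3 against -0.75, -0.87 and -0.53 in WT replicates 1 to 3. The log2 ratio of Cbfb to the RUNX sum, per kilobase, was 0.93, 0.78 and 0.96 in CD74-/- replicates 1, 2 and 3, against 0.63, 0.55 and 0.93 in WT replicates 1, 2 and 3. The mean difference was 0.19 and the groups overlapped, with p = 0.2 in the exact permutation test. Ratios between single members were added after the values had been seen. Of these, log2(Runx1/Cbfb) was -2.52, -2.24 and -2.23 in CD74-/- libraries against -2.01, -2.01 and -2.18 in WT libraries. This was the ratio whose groups did not overlap, by a gap of less than 0.05 between CD74-/- replicate 3 and WT replicate 3. Its mean difference was -0.26, and its exact permutation p of 0.1 is the smallest this design can give and was 0.8 after adjustment over the 8 shares and ratios. In this ratio replicate 3 of CD74-/-, which stood apart for each gene alone, lay beside CD74-/- replicate 2.

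**Figure D4:**
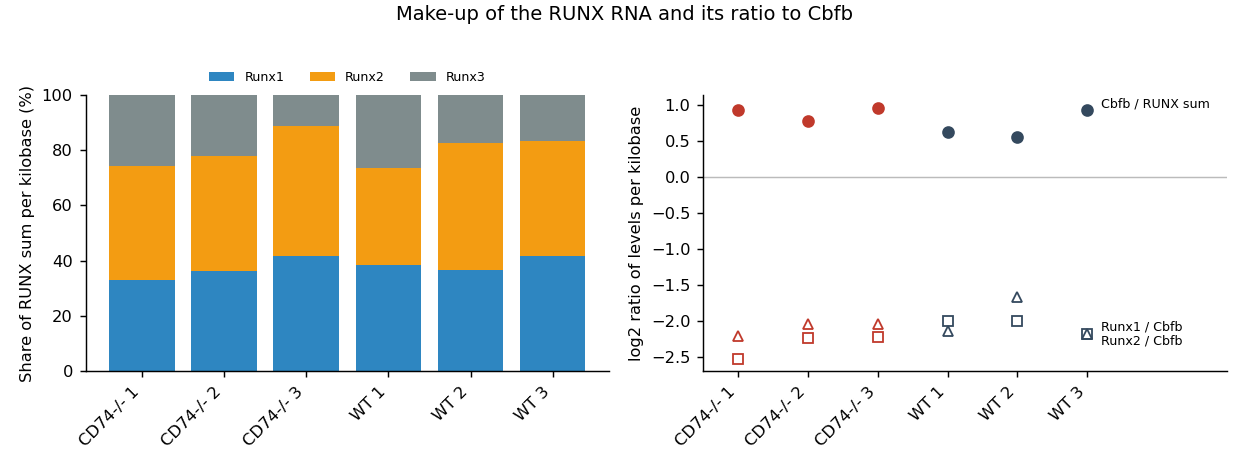
Left, share of Runx1, Runx2 and Runx3 in their sum per kilobase (bars, percent) in each library; right, log2 ratios of levels per kilobase, with Cbfb over the RUNX sum as filled circles, Runx1 over Cbfb as open squares and Runx2 over Cbfb as open triangles, in red for CD74-/- and dark blue for WT. Runx3 is 11.04% of the sum in CD74-/- replicate 3, its smallest share, and the open squares lie between -2.52 and -2.23 in CD74-/- libraries and between -2.18 and -2.01 in WT libraries.

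Over the 6 libraries, Runx1, Runx2 and Cbfb had profiles closer to each other than to Runx3. Likeness was the root mean square difference of the centred log2 values, over 10585 genes whose mean normalized count was 50 or more. Predicted Gm and Rik genes were left out. It was 0.168 between Runx1 and Runx2, 0.174 between Runx1 and Cbfb and 0.182 between Runx2 and Cbfb. Between Runx3 and each of the others this difference was 0.512 to 0.552. Many other genes were closer, as Runx2 ranked 196 and Cbfb 233 in closeness to Runx1. In turn, Runx1 ranked 170 for Runx2 and 198 for Cbfb. The closest genes to Runx1 were Chd2 (0.052), Smarca2 (0.062) and Atxn7 (0.069). For Runx2 they were Ccny (0.042), Cwc22 (0.066) and Acp2 (0.066), for Cbfb they were Insr (0.049), Cnot6 (0.054) and Mfap1b (0.064), and for Runx3 they were Mrfap1 (0.064), Ubald1 (0.074) and Selenoh (0.076). The points of each profile share the same 6 libraries, including CD74-/- replicate 3.

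The proteins that work with RUNX factors were then examined, as 43 genes in 4 lists written from background knowledge. limma called 0 of 43, and at an unadjusted p under 0.05 there was 1 higher and 3 lower, where 3.14% and 4.60% of all tested genes were higher and lower at that level. edgeR called 0 of the 42 it tested, Lef1 being below its filter, and DESeq2 2 of 43. Over all genes, limma called 0.0873%, edgeR 0.083% and DESeq2 0.756%. The log2 fold change was negative for 31 and positive for 12, with a median of -0.18 beside -0.03 for all tested genes. The highest CD74-/- library was replicate 3 for 26 of the 43 (60.5%), where it was the highest for 40.3% of all tested genes. By quartile of exon length that share ran from 29.1% to 57.4%, and the 43 genes were not matched for length.

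Corepressors turn RUNX factors into silencers. Of 12, limma called 0. Runx1t1 and Tle3 had every CD74-/- library below every WT library, where 7.47% of tested genes did. Runx1t1, known as ETO and as the fusion partner of RUNX1 in human leukemia, had 13.7, 85.2 and 134 normalized counts in CD74-/- replicates 1, 2 and 3, against 185, 146 and 244 in WT replicates 1, 2 and 3 (log2 fold change -1.76, limma adjusted p = 0.630). Tle3, a Groucho-type corepressor that binds the end of RUNX proteins, had 343, 240.3 and 263 in CD74-/- libraries against 777, 374 and 387 in WT libraries (-0.79, adjusted p = 0.667). The most abundant corepressor, Cbfa2t3, had 3635, 3948 and 5369 in CD74-/- libraries against 4716, 4937 and 4934 in WT libraries, and Ncor1 averaged 2880.4 ± 324 in CD74-/- cells and 3455 ± 388 in WT cells (SD, n = 3 each), and both overlapped.

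Coactivators acetylate histones and RUNX1 itself. Of the 4, limma called 0, and all overlapped between the genotypes. In all 4 CD74-/- replicate 3 was the highest CD74-/- library, as it was for 40.3% of all tested genes. All 4 fall in the quartile with the longest exons, where that share was 57.4%. The part of gene length in this order was not tested. Kat6a, also called MOZ, had 398, 383 and 1117 normalized counts in CD74-/- replicates 1, 2 and 3, against 1118, 735 and 527 in WT replicates 1, 2 and 3. Ep300 had 1407, 1248 and 2845 in CD74-/- libraries against 1977, 2498 and 1282 in WT libraries. Crebbp averaged 1909.9 ± 286 in CD74-/- cells and 2342 ± 131 in WT cells (SD, n = 3 each; log2 fold change -0.30, limma adjusted p = 0.736). Runx1, Runx2 and Cbfb had the same library on top.

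DNA-binding partners share enhancers with RUNX1 in HSCs. Of 14, limma called 0, while DESeq2 called 1 higher and 1 lower, where it called 0.250% of genes higher and 0.505% lower. Jun, an AP-1 subunit and early response gene, had 318, 151 and 219 normalized counts in CD74-/- replicates 1, 2 and 3, against 70.6, 62.7 and 37.8 in WT replicates 1, 2 and 3. Every CD74-/- library lay above every WT library for Jun, where 5.35% of tested genes did. Its log2 fold change was 1.97 (SE 0.506, adjusted p = 0.422) by limma, with an adjusted p of 0.0254 by DESeq2. Lef1, a factor that answers Wnt signals, had 0, 0 and 1.02 in CD74-/- libraries, the last from 1 read, against 91.0, 5.38 and 65.3 in WT libraries. DESeq2 called it lower (adjusted p = 0.00911) and limma did not (adjusted p = 0.520), and no fold is given because a single read carries the CD74-/- value.

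2 further partners, both in the complex that bridges E-box and GATA sites, lay below all WT libraries, where 7.47% of tested genes did. Ldb1 had 504, 728 and 689 normalized counts in CD74-/- replicates 1, 2 and 3, against 1287, 841 and 914 in WT replicates 1, 2 and 3 (log2 fold change -0.66, limma adjusted p = 0.630). Lyl1 had 531, 562 and 702 in CD74-/- libraries against 1123, 821 and 788 in WT libraries (-0.60, adjusted p = 0.650). The adaptor Lmo2, the most abundant partner, had 16880.2, 20021 and 26406 in CD74-/- libraries and 21046, 21258 and 23654 in WT libraries, which overlapped. Fli1, an ETS factor, had 2193, 2035 and 3885 in CD74-/- libraries and 3565, 2564 and 3089.99 in WT libraries, with CD74-/- replicate 3 again the highest. Without CD74-/- replicate 3, DESeq2 called 2 partners higher (Jun and Spi1) and 2 lower (Lef1 and Tal1), where it called 3.59% of genes higher and 2.48% lower.

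Enzymes that modify RUNX1 made up the last cofactor list. Of 13, limma, edgeR and DESeq2 each called 0, none had an unadjusted limma p under 0.05, and none was free of overlap. Cdk6, a cyclin-dependent kinase that binds RUNX1, averaged 4989.7 ± 1586 normalized counts in CD74-/- cells and 4710.5 ± 1724 in WT cells (SD, n = 3 each). Prmt1, which methylates RUNX1, had 788, 711 and 323 in CD74-/- replicates 1, 2 and 3, against 181, 375 and 451 in WT replicates 1, 2 and 3 (log2 fold change 0.85, limma adjusted p = 0.687). Stub1, a ubiquitin ligase of RUNX1, had 829, 1020.0 and 335 in CD74-/- libraries against 229, 543 and 388 in WT libraries (0.85, adjusted p = 0.688). Without CD74-/- replicate 3, DESeq2 called Stub1 higher (adjusted p = 0.0363) and Ptpn11, a phosphatase that acts on RUNX1, lower (adjusted p = 0.0104), 1 of 13 in each direction, where it called 3.59% of genes higher and 2.48% lower. Stub1 shares 42.3% of its exon bases with Jmjd8, so its counts are uncertain.

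Known targets of RUNX factors were examined last. They were 49 genes in 6 lists, of which 34 passed the filter on low values. limma called 0 of 34, edgeR 0 of the 31 that passed its own filter, and DESeq2, with no filter, 2 of 43, both lower and both lymphoid, where it called 0.756% of all genes. At an unadjusted limma p under 0.05 there was 1 higher and 6 lower, where 3.14% and 4.60% of all tested genes were higher and lower. The median log2 fold change was -0.44, beside -0.03 for all tested genes. Spi1 and Cebpa stand both among the partners and among the myeloid targets.

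Stem cell targets showed no common direction. Of 4, limma called 0, 2 were positive and 2 negative, and the median log2 fold change was 0.05. Gfi1, a repressor that RUNX1 switches on as HSCs form, had 289.6, 214 and 420.1 normalized counts in CD74-/- replicates 1, 2 and 3, against 359.6, 529 and 359 in WT replicates 1, 2 and 3. Its relative Gfi1b averaged 562 ± 236 in CD74-/- cells and 429.7 ± 152 in WT cells (SD, n = 3 each), and Hmga2, a chromatin protein of fetal stem cells, 565 ± 149 in CD74-/- cells and 447 ± 139 in WT cells. All 3 overlapped.

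Among the 10 tested lymphoid targets, 8 were negative and 2 positive, with a median log2 fold change of -0.90. limma called 0. DESeq2 called 2 lower, of 14 with a value, where it called 0.505% of genes lower, and 3 (Ebf1, Blk and Il7r) lay below all WT libraries, where 7.47% of tested genes did. Ebf1, the factor that sets B cell identity, had 115, 34.5 and 13.3 normalized counts in CD74-/- replicates 1, 2 and 3, against 848, 269.7 and 589 in WT replicates 1, 2 and 3. The groups were far apart, with a log2 fold change of -3.72 (SE 0.744), an adjusted p of 0.199 by limma and 1.79e-04 by DESeq2. Blk, a B cell kinase, had 6.85, 0 and 1.02 in CD74-/- libraries against 192, 9.86 and 38.8 in WT libraries (DESeq2 adjusted p = 0.0437, limma adjusted p = 0.563). Il4, which RUNX3 silences in T cells, had 123, 212 and 407 in CD74-/- libraries against 364, 381 and 853 in WT libraries. B cell markers also had negative log2 fold changes. The 9 markers, to which Ebf1 and the target Cd79a belong, summed to 1219 to 3110 normalized counts in CD74-/- libraries and 3073 to 10116 in WT libraries. All 9 were negative and 8 of 9 had an unadjusted limma p under 0.05, where 4.60% of all tested genes were lower at that level. The part of B lineage RNA in the lymphoid targets was not tested. Targets of cytotoxic T cells, the domain of RUNX3, were sparse, as Cd8a, Gzmb and Prf1 had a mean below 10 normalized counts and each was at 0 in at least 1 library of both genotypes.

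Myeloid targets of RUNX1 include granule genes and the factor PU.1. Of 6 tested, limma called 0, and Elane and Csf1r had an unadjusted p under 0.05. Elane, a granule protease, had 137, 2.03 and 57.4 normalized counts in CD74-/- replicates 1, 2 and 3, against 4466, 3432 and 72.9 in WT replicates 1, 2 and 3, and the groups overlapped. Csf1r, the receptor for macrophage colony-stimulating factor, had 128, 0 and 11.3 in CD74-/- libraries against 346, 102 and 152 in WT libraries. Spi1, which encodes PU.1 and is driven by RUNX1 through an upstream enhancer, had 2413, 2363 and 620 in CD74-/- libraries against 1302, 1193 and 1131 in WT libraries. CD74-/- replicates 1 and 2 lay above all WT libraries and CD74-/- replicate 3 below them, the reverse of the Runx1 order. Without CD74-/- replicate 3, DESeq2 gave Spi1 a log2 fold change of 0.98 and an adjusted p of 5.29e-05, in a comparison that called 3.59% of genes higher. Summed neutrophil markers, to which Elane and the target Mpo belong, were 31360 to 144764 in CD74-/- libraries and 157123 to 973968 in WT libraries. All 10 were negative and 9 had an unadjusted limma p under 0.05, where 4.60% of all tested genes were lower at that level. Summed monocyte and macrophage markers, to which Csf1r belongs, were 9529 to 39488 in CD74-/- libraries and 29564 to 51038 in WT libraries, with 9 of 10 negative and 5 at an unadjusted limma p under 0.05. The part of either lineage in Elane and Csf1r was not tested.

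Megakaryocyte targets, the lineage in which RUNX1 loss lowers platelets, gave 0 calls, of 8 tested by limma, 7 by edgeR and 9 by DESeq2. Nfe2, a platelet factor, averaged 4494 ± 919 normalized counts in CD74-/- cells and 4582 ± 84.8 in WT cells (SD, n = 3 each). Itga2b, which encodes CD41, had 236, 164 and 209 in CD74-/- replicates 1, 2 and 3, against 510.5, 259 and 275 in WT replicates 1, 2 and 3 (log2 fold change -0.72, limma adjusted p = 0.688), with no overlap. Prkcq, a protein kinase C, had 815, 802 and 809.5 in CD74-/- libraries against 671, 639.7 and 652 in WT libraries, and did not overlap in the other direction (0.31, adjusted p = 0.758). That made 1 of 8 tested targets below all WT libraries and 1 of 8 above, where 7.47% and 5.35% of all tested genes were. Myh10, a myosin that RUNX1 switches off in megakaryocytes, had 46.0, 22.3 and 68.7 in CD74-/- libraries against 135, 104 and 59.6 in WT libraries.

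Of 4 adhesion targets, limma and DESeq2 called 0, and edgeR called 0 of the 3 it tested, without Itgae. Itgae, which encodes CD103 and is switched on by RUNX3 in T cells, had 5.87, 55.8 and 58.4 normalized counts in CD74-/- replicates 1, 2 and 3, against 0, 1.79 and 0 in WT replicates 1, 2 and 3, the WT value resting on 2 reads (limma adjusted p = 0.563). Every CD74-/- library lay above every WT library, where 5.35% of tested genes did. Spn, the sialoglycoprotein CD43, had 1189.6, 1158 and 2298 in CD74-/- libraries against 2413, 1914 and 1786 in WT libraries. Without CD74-/- replicate 3, DESeq2 called Spn lower (log2 fold change -0.80, adjusted p = 0.0101), where it called 2.48% of genes lower. Itga4 averaged 1916 ± 493 in CD74-/- cells and 1969 ± 341 in WT cells (SD, n = 3 each).

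Most skeletal targets of RUNX2 were sparse, while Runx2 itself was not. Of the 6 analysed here, 2 passed the filter, and Bglap, Bglap2 and Alpl were at 0 in all CD74-/- libraries. Spp1, a bone and immune matrix protein, had 277, 104 and 85.1 normalized counts in CD74-/- replicates 1, 2 and 3, against 213, 200.7 and 273 in WT replicates 1, 2 and 3. Ibsp, bone sialoprotein, had 53.7 in CD74-/- replicate 2, 38.5 in WT replicate 2 and at most 1.07 in the other libraries. The 7 markers of plasmacytoid dendritic cells, which need Runx2 in mice, summed to 6606 to 7892 in CD74-/- libraries and 6615 to 11381 in WT libraries, and of the 6 tested 2 had a positive and 4 a negative log2 fold change. Siglech and Klk1 were at 0 in all CD74-/- libraries, and Klk1 also in WT replicates 2 and 3.

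**Figure D5:**
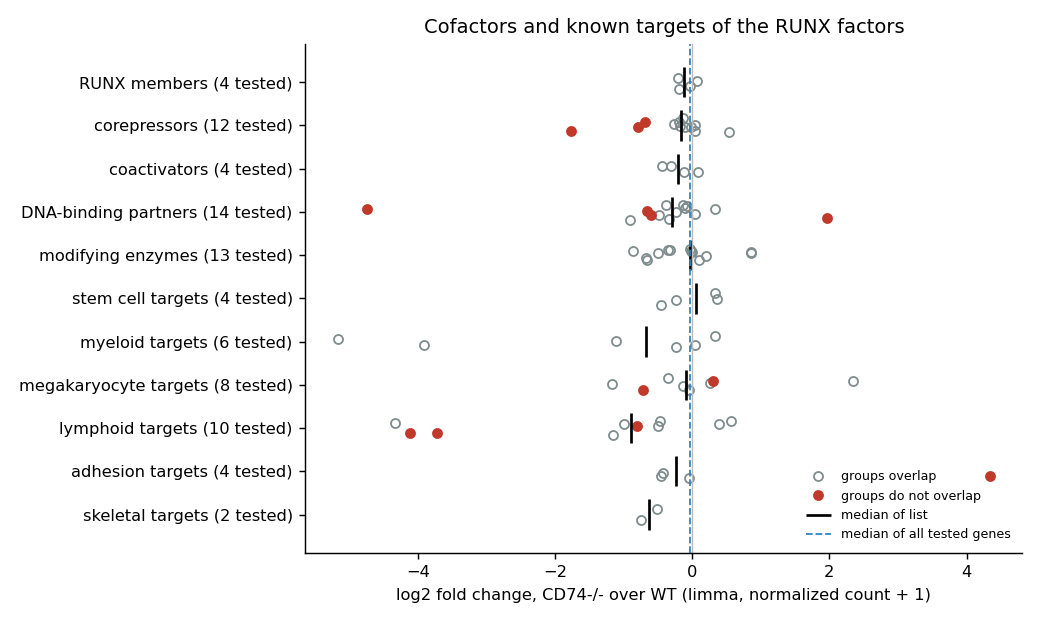
limma log2 fold change, CD74-/- over WT, of each tested gene (points) in the RUNX group, the cofactor lists and the target lists; filled red points are genes whose groups do not overlap, black bars are list medians and the dashed line is the median of all tested genes (-0.03). The 4 RUNX genes lie between -0.21 and 0.07, Jun and Itgae lie farthest to the right among genes without overlap, and the lymphoid list has the lowest median (-0.90).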

How the data were processed

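RNA was measured in sorted CD34-/LSK cells, with 3 libraries from CD74-/- mice and 3 from WT mice, each read as 1 mouse. The authors made libraries with SMART-Seq v4, which keeps no strand, sequenced single-end reads, trimmed them with cutadapt, discarded reads shorter than 30 bases, aligned the rest to GRCm38 with STAR (2.4.2a in the submitters' processing notes) and Ensembl release 92, and obtained reads per gene with htseq-count. The deposited signal is a normalized count, that is, reads over the size factor that DESeq2 gave each library, with 2 decimals. Whole reads were recovered from it by dividing by the smallest step of each library, and this came out whole, within 0.006, for all 101059 nonzero values (100.0%). No column of the table was left without a sample (0). A second sheet with thresholds was not used.

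limma (3.58.1, R 4.3.3) with a trend was run on log2(normalized count + 1) for genes with a mean of at least 10, since normalized counts are not raw counts. edgeR (4.0.16, quasi-likelihood), DESeq2 (1.42.0, with its beta prior, Cook's cutoff and independent filtering off) and limma-voom on recovered reads, other pseudocounts and filters, total-read scaling, the replicate number as a block and each library left out were alternatives. DESeq2 without each library and the ratios between single members were chosen after seeing the data. limma, edgeR and DESeq2 were tested on simulated data. Permutation tests were exact and two-sided, with a smallest p of 0.1. P-values measure the spread between these libraries, each read as 1 mouse. Coordinates and exon lengths came from GENCODE vM21 (GRCm38). The members and lists were chosen with earlier results of these data known. Named were the members, Cd74, up to 4 genes per list (the 2 with the highest mean, the 2 with the smallest limma p) and the 3 closest profiles per member. Further genes (Ldb1, Lyl1, Tal1, Ptpn11, Cd79a, Il7r, Prkcq, Runx2os1 and genes at 0) were chosen after their values were seen. Csf2, Il3, Ifng, Mmp13, Sp7 and Col1a1 were not analysed here. Some genes that the naming rule takes are not reported here.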

Additional observations from a re-analysis of the deposited data

How the results depend on the processing

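The counts of members called were 0 in all 22 settings except 1. Leaving out each library in turn, with limma or DESeq2, gave log2 fold changes of -0.52 to 0.07 for Runx1, -0.35 to 0.18 for Runx2, -0.35 to -0.01 for Runx3 and -0.21 to 0.29 for Cbfb (with limma alone, -0.33 to 0.12 for Runx2 and -0.20 to 0.24 for Cbfb). The low end of Runx1 (-0.52, DESeq2 adjusted p = 0.0445) came without CD74-/- replicate 3, and without CD74-/- replicate 1 or 2 DESeq2 gave 0.0719 and 0.0324. Runx2 changed sign with edgeR (0.0363) and DESeq2 (0.0189), with limma without WT replicate 2 (0.0761), CD74-/- replicate 1 (0.119) or 2 (0.112), and with DESeq2 without WT replicate 2 (0.135) or 3 (0.0237) or CD74-/- replicate 1 (0.184) or 2 (0.185). Cbfb changed sign without CD74-/- replicate 3 (-0.20 with limma, -0.21 with DESeq2). Over the lists, DESeq2 called 2 DNA-binding partners and 2 lymphoid targets, where it called 0.756% of all genes. With libraries left out, the calls ranged from 0 to 4 for partners, 0 to 2 for modifying enzymes and 0 to 3 for lymphoid targets. These maxima of 4, 2 and 3 came from DESeq2 without CD74-/- replicate 3, where 6.06% of 19467 genes were called. The calls ranged from 0 to 1 for myeloid targets and 0 to 1 for adhesion targets. They were 0 for corepressors, coactivators, stem cell, megakaryocyte and skeletal targets. The differences in share ranged from -4.18 to 0.05 percentage points for Runx1, -0.51 to 5.05 for Runx2 and -3.55 to 3.72 for Runx3, and the difference of log2(Cbfb/RUNX sum) from 0.11 to 0.30. The cause of these shifts was not tested.

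Labels give both genotypes replicate numbers 1 to 3 but no pairing. Deviations of same-numbered libraries correlated at 0.116, 0.0716 and 0.0193 across genes, and 5 of 6 libraries correlated best with their own number. Whether libraries of the same number share more than the number was not tested. With the replicate number as a block, limma called 6 genes higher and 21 lower, against 6 and 7 without it. The members kept their log2 fold changes under the block (Runx1 -0.20, Runx2 -0.03, Runx3 -0.21, Cbfb 0.07), with adjusted p of 0.847, 0.981, 0.857 and 0.952. DESeq2 called 49 genes higher and 99 lower with all libraries, and 698 and 482 without CD74-/- replicate 3. The 95% intervals of the members follow from the spread between 3 libraries per group.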
